A study of Mus musculus with 4 samples.

Results

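The miR-30 family comprises the 5 mature mouse microRNAs (miRNAs) mmu-miR-30a, mmu-miR-30b, mmu-miR-30c, mmu-miR-30d and mmu-miR-30e, each measured by 1 of the 566 mouse miRNA probes on the panel. The members were chosen by probe name, and the panel held 0 probes for the opposite arms of their hairpins. The names carry no arm, and in the older nomenclature an unmarked miR-30 name is the 5p arm. Levels were measured in total RNA of 2 liver tumours and 2 normal livers with the NanoString nCounter miRNA assay, which counts colour-coded probes one by one. Per the labels, the mice were females with floxed alleles (NF2fl/fl) of Nf2, the tumour suppressor gene that encodes merlin, and received PBS or AAV2/8-Cre, a virus that deletes the gene in hepatocytes. Tumours were dissected from livers examined 50 weeks after the injection. The protocols mention 3 mice and do not say whether the normal samples came from PBS-treated animals, so both groups share the floxed allele and the treatment of each normal sample is not stated. Whether 2 samples of 1 group are 2 animals is not stated either, so the p-values rest on a spread that may be technical. The comparison asked how miRNAs of tumours that follow loss of Nf2 differ from those of normal liver.

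MiRNAs pair with messenger RNAs through the seed, bases 2 to 8 of the mature strand, and repress them. MiR-30 is an abundant family of epithelial tissues and liver. In mammalian cells its members repress the transcription factor SNAI1, which drives epithelial cells towards a mesenchymal state, and the matrix regulator CTGF. In zebrafish the family is needed for bile duct formation, and in mice miR-30c lowers lipoprotein secretion by the liver through the transfer protein gene Mttp.

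RefSeq sequences (build GRCm38.p6) matched 3 of the 5 members by name. They are shown because the members share a seed and differ in the bases after it, where the probes must tell them apart. The seed is in capitals.
miR-30a: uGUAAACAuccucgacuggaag
miR-30c: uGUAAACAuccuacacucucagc
miR-30e: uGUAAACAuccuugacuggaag
miR-384-5p: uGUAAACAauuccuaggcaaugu

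MiR-30a (chr1:23272274-23272295, plus strand) and miR-30e (chr4:120772660-120772681, minus strand) differ at 1 of 22 positions, C13U counted from the 5′ end with the miR-30a base first. MiR-30c differs from each of them at 5 of 22 positions. How far the miR-30a and miR-30e probes count each other's target was not tested. MiR-384-5p (chrX:105344332-105344354, minus strand) has the same seed and is no member. Its probe gave 9 and 3 counts in the tumours and 5 and 5 in the normal livers, below the detection threshold, set from the negative controls, in each sample.

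The 5 members come from 6 hairpins in 3 pairs of neighbouring genes, with 0 other RefSeq genes lying between the partners of each pair. Mir30b and Mir30d lie on chromosome 15, Mir30a and Mir30c-2 on chromosome 1, and Mir30e and Mir30c-1 on chromosome 4, where both lie within Nfyc, the gene of a subunit of the transcription factor NF-Y. MiR-30c is therefore the member with 2 sources. Both hairpins are shown with the mature miR-30c strand in capitals, since its probe reads their sum and cannot tell them apart.
Mir30c-1 hairpin: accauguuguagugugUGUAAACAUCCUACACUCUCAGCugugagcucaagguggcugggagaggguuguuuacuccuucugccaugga
Mir30c-2 hairpin: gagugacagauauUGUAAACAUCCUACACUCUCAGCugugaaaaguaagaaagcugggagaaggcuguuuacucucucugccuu

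The Mir30c-1 hairpin spans chr4:120769534-120769622 on the minus strand and the Mir30c-2 hairpin spans chr1:23291701-23291784 on the plus strand.

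The deposited values are probe counts that the authors multiplied by 1 factor per sample, so whole counts could be recovered. Counts over all mouse miRNA probes totalled 239727 and 123818 in the tumours and 68260 and 62054 in the normal livers. The 5 members had between 80 and 1979 counts in each sample, at least 4.36 times the highest detection threshold (the mean plus 2 SD of a sample's negative controls). All 5 passed the filter on low values, as did 276 of the 566 miRNAs. The factors were 0.395 and 0.905 in the tumours and 2.09 and 2.30 in the normal livers. They lower any constant signal in the tumours, and the scaled negative controls had a log2 difference of -1.79, tumour minus normal. The 2 tumours also differed from each other more than the normal livers did (chi-square per probe 34.0 in tumours and 3.23 in normal livers, a measure that also grows with the counts).

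Cell type lists were measured on the same samples. All 11 measured hepatocyte-enriched miRNAs were detected in at least 1 sample, and together they took 21.4% to 23.7% of miRNA counts in tumours and 32.9% to 35.2% in normal livers. In the deposited scaling limma called all 11 lower in tumours. The 5 miRNAs of bile duct and other epithelium took 1.13% to 1.37% in tumours and 0.145% to 0.148% in normal livers. They did not move together. As deposited, limma called miR-200a, miR-200b and miR-429 higher in tumours and miR-200c, at 9 to 33 counts, lower. The 6 mesenchymal and stellate cell miRNAs took 3.93% to 6.19% in tumours and 1.55% to 1.79% in normal livers. Of these 6, limma called 3 higher (miR-199a-5p, miR-199a-3p and miR-125b-5p) and 0 lower. Over all 276 miRNAs tested, 7.97% were called higher and 46.7% lower. Leukocyte miRNAs took 0.92% to 1.34% in tumours and 0.92% to 1.17% in normal livers. For endothelial miRNAs the shares were 3.67% to 4.10% and 3.23% to 3.67%, and for erythroid miRNAs 1.64% to 1.82% and 0.91% to 1.10%. Limma called 2 of 6 leukocyte miRNAs lower (miR-142-5p and miR-155), 1 of 2 endothelial (miR-126-5p) and 0 of 3 erythroid. It called 0 higher in each of these lists. The part of these differences in the miR-30 results was not tested, and in bulk tissue fewer cells of a type and less RNA per cell cannot be told apart.

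As deposited, miR-30c was the only 1 of the 5 members called different between tumours and normal livers. It fell to 93.2 and 97.8 scaled counts in the tumours, against 292 and 358 in the normal livers. Both tumours lay below both normal livers, and the 2 tumours were nearly equal. The group means were 95.5 ± 3.20 in tumours and 325 ± 46.8 in normal livers (SD, n = 2 each). The log2 difference was -1.75 (SE 0.26, limma adjusted p = 0.00339), or 3.36-fold lower in tumours. Before scaling, miR-30c had 236 and 108 counts in the tumours and 140 and 156 in the normal livers, and those counts overlap.

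That call has to be read against its background. Of the 276 miRNAs tested, 129 were called lower in tumours, which is 46.7%, and 22 were called higher, which is 7.97%. In the deposited scaling with this filter, 1 call of 5 is not above that share. Without a test, 178 of the 276 (64.5%) had both tumours below both normal livers and 42 (15.2%) had both above, which is the background for the 4 members whose tumours lay below. The median log2 difference of the 5 members was -0.81, against -0.90 for all 276. Both readings depend on which miRNAs are kept. With only the 136 miRNAs detected in all 4 samples limma called 3 of the 5 members lower (miR-30b, miR-30c and miR-30e), beside 36.8% of all called lower and 12.5% higher, and the median was -0.81 for the members and -0.31 for all. Under a stricter filter that kept 116 miRNAs, chosen after seeing the data, 2 members were called lower (miR-30c and miR-30e), beside 29.3% lower and 16.4% higher, and the median was -0.81 for the members and -0.12 for all. In order from the most negative difference, miR-30c ranked 50 of 276, and the other members ranked between 145 and 222.

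**Figure D1:**
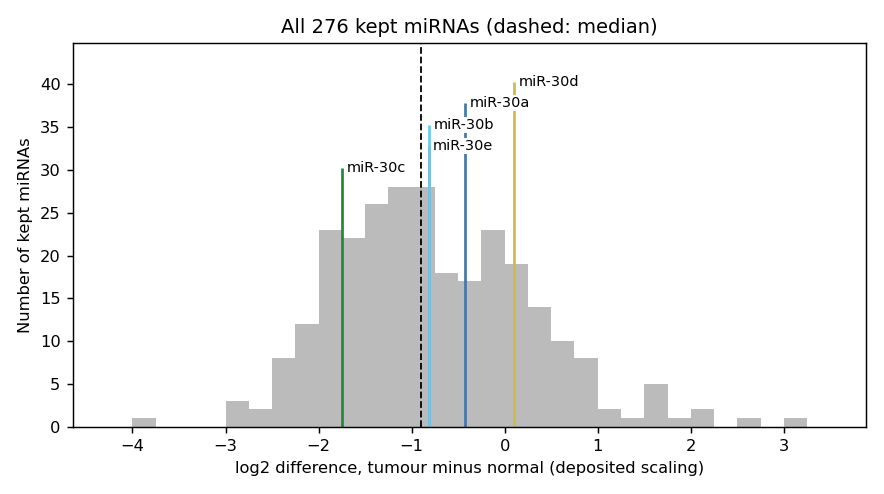
Histogram of the log2 difference, tumour minus normal, of the 276 miRNAs tested in the deposited scaling, with a vertical line for each miR-30 member and a dashed line at the median of all. MiR-30c, at -1.75, lies below the median of -0.90, and the other 4 members lie above it.

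MiR-30e, the partner of miR-30c-1 inside Nfyc, had 136 and 98.7 scaled counts in the tumours and 229 and 184 in the normal livers. The groups did not overlap, and the log2 difference of -0.82 (SE 0.29) missed the threshold of 0.05 (limma adjusted p = 0.0529). The difference was -1.05 without liver tumour replicate 1 and -0.59 without liver tumour replicate 2. Without normal liver replicate 1 it was -0.66, and without normal liver replicate 2 it was -0.98. A fit with 1 tumour left holds no spread between tumours. MiR-30a, the partner of miR-30c-2 and known in human cancer cells as a repressor of the autophagy gene BECN1, had 738 and 719 in the tumours and 1068 and 900 in the normal livers. Again both tumours lay below both normal livers, by a smaller margin. Its log2 difference of -0.43 did not pass the test (SE 0.26, limma adjusted p = 0.198), with a 95% interval of -1.05 to 0.19.

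MiR-30b and miR-30d, made from neighbouring hairpins, had unlike differences. MiR-30b had 782 and 496 scaled counts in the tumours and 1062 and 1130 in the normal livers. The groups were separate, but the tumours differed so much from each other that the log2 difference of -0.81 (SE 0.31) did not pass (limma adjusted p = 0.0637). The difference was -1.14 without liver tumour replicate 1 and -0.49 without liver tumour replicate 2, fits that hold no spread between tumours. Without normal liver replicate 1 it was -0.86, and without normal liver replicate 2 it was -0.77. MiR-30d had 430 and 374 in the tumours and 363 and 383 in the normal livers. It was the only member whose groups overlapped, with a log2 difference of 0.10 (SE 0.26, 95% interval -0.51 to 0.72, limma adjusted p = 0.756).

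**Figure D2:**
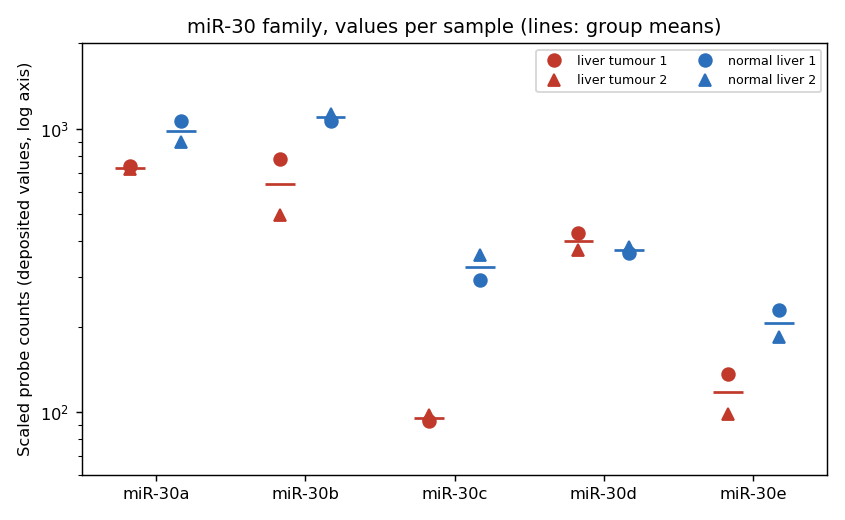
Deposited scaled probe counts (log axis) of the 5 miR-30 members in each sample, tumours in red and normal livers in blue, with lines at the group means. Tumours lie below normal livers for miR-30a, miR-30b, miR-30c and miR-30e, and the 2 groups overlap for miR-30d.

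The direction of every member other than miR-30c depends on how the samples are scaled, since the deposited factors set the geometric mean of the 100 most counted miRNAs equal. With the positive control probes set equal instead, the median log2 difference of all 276 miRNAs was 0.091, against -0.90 as deposited. In that scaling the differences were 0.59 for miR-30a, 0.21 for miR-30b, 0.20 for miR-30e and 1.12 for miR-30d, and limma called 0 members (1 at an unadjusted p under 0.05, miR-30d). MiR-30c was at -0.73 there (limma adjusted p = 0.274), the only member below 0. Of all miRNAs 3.62% were called lower and 15.9% higher in that scaling. EdgeR on the recovered counts called miR-30c lower (log2 difference -0.91, adjusted p = 0.00977) and miR-30d higher (0.97, edgeR adjusted p = 0.00534), beside 14.1% of all miRNAs lower and 25.7% higher. With equal medians limma also called these 2 members, miR-30c lower at -0.94 (adjusted p = 0.0358) and miR-30d higher at 0.92 (adjusted p = 0.0338), beside 18.1% lower and 21.4% higher. MiR-30c thus kept a negative difference in the 20 alternatives run and was called in 18. The exceptions were the positive controls and the subtraction of background, where it was at -1.75 (limma adjusted p = 0.0661). With background subtracted, limma called 0% of all 276 miRNAs lower and 2.9% higher.

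**Figure D3:**
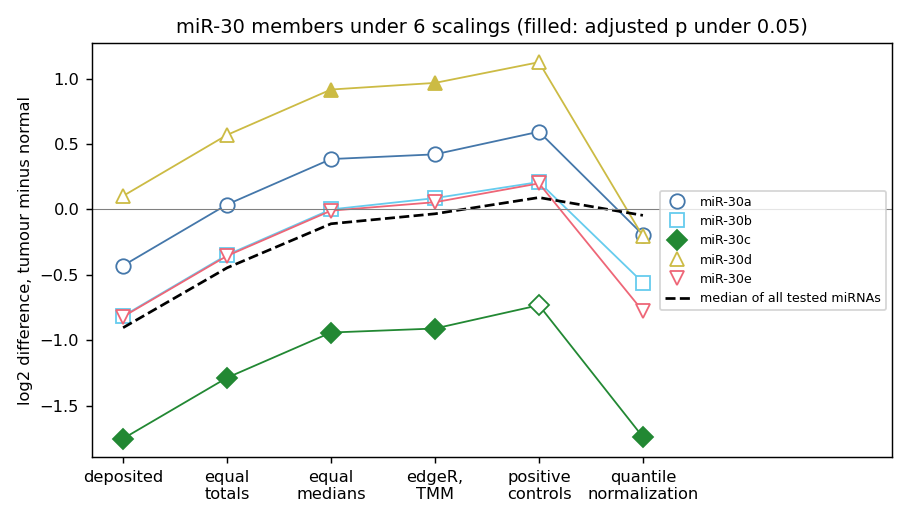
Log2 difference, tumour minus normal, of each miR-30 member under 6 scalings, filled where the adjusted p is under 0.05, with the median of all tested miRNAs dashed. MiR-30c is lowest in each of the 6 and miR-30d highest in the first 5, while under quantile normalization miR-30d (-0.21) lies below miR-30a (-0.19).

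Ratios between members within a sample cancel any single factor of that sample, so they do not depend on the deposited factors. Quantile normalization is no such factor, and 2 pairs rather than 4 were called under it. All 10 pairs were compared, by limma on the log2 ratio of every miRNA to the denominator, and 4 were called. The share of all other miRNAs called lower was 22.9% relative to miR-30a, 4.36% to miR-30b, 52% to miR-30d and 9.09% to miR-30e. With 2 samples against 2, an exact permutation test of a single ratio cannot give a two-sided p below 0.333.

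MiR-30c over miR-30d differed most. The ratio of their counts was 0.217 and 0.262 in the tumours and 0.805 and 0.934 in the normal livers. MiR-30c had far fewer counts than miR-30d in both tumours and nearly as many in both normal livers. The log2 ratio fell by 1.85 (SE 0.30, limma adjusted p = 0.0016), or 3.61-fold, and the call held in all 18 alternatives run for ratios, with adjusted p-values between 8.12e-10 and 0.0456. The lowest came with eBayes trend and robust, at the same log2 difference and an SE of 0.275. It depends on a spread pooled over all miRNAs, not on the 4 samples of this ratio alone. Against miR-30d as denominator, 52% of the other miRNAs were called lower and 5.82% higher in tumours. A fall relative to miR-30d is thus common among the kept miRNAs. Of those 276, only 136 were detected in all 4 samples, and the share called among the 136 was not counted.

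For the locus on chromosome 15, miR-30b over miR-30d was 1.82 and 1.33 in the tumours and 2.93 and 2.95 in the normal livers. The normal livers gave nearly 1 value and both tumours lay well below it. The log2 ratio fell by 0.92 (SE 0.31, limma adjusted p = 0.0336, exact permutation p = 0.333), beside 52% of miRNAs called lower and 5.82% called higher relative to miR-30d. The direction was the same in all 18 alternatives, but the call was lost in 8 of them, among them the omission of liver tumour replicate 2 (-0.69, adjusted p = 0.153), normal liver replicate 1 (-0.92, adjusted p = 0.14) or normal liver replicate 2 (-0.91, adjusted p = 0.154) and the ratio taken the other way up (adjusted p = 0.182). Under quantile normalization it was -0.35 (limma adjusted p = 0.519).

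The partners on chromosome 1 also moved apart. MiR-30c over miR-30a was 0.126 and 0.136 in the tumours and 0.273 and 0.398 in the normal livers, without overlap. The log2 ratio fell by 1.32 (SE 0.32, limma adjusted p = 0.018), beside 22.9% of miRNAs called lower and 9.82% called higher relative to miR-30a. This call ended in 5 of the 18 alternatives, among them the omission of liver tumour replicate 1 (-1.27, adjusted p = 0.122), liver tumour replicate 2 (-1.37, adjusted p = 0.0745) or normal liver replicate 2 (-1.05, adjusted p = 0.107).

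On chromosome 4, miR-30c over miR-30e was 0.684 and 0.991 in the tumours and 1.27 and 1.95 in the normal livers. The groups did not overlap, yet the log2 ratio of -0.93 did not pass (SE 0.49, 95% interval -1.90 to 0.041, limma adjusted p = 0.16), beside 9.09% called lower and 12.7% called higher relative to miR-30e. Taken the other way up, an alternative chosen after seeing the data, the same ratio was called (limma adjusted p = 0.0434). MiR-30c, then the denominator, ranked 50 of 276 from the most negative difference. The share of all miRNAs called relative to miR-30c was not counted. The share of miR-30c made by each of its 2 hairpins was not measured, so no fall can be assigned to a locus.

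Of the remaining pairs, miR-30e over miR-30d was called, beside 52% of miRNAs called lower and 5.82% called higher relative to miR-30d. This pair had ratios of 0.317 and 0.264 in the tumours and 0.632 and 0.479 in the normal livers. Its log2 ratio fell by 0.92 (SE 0.31, limma adjusted p = 0.0336), and the call was lost in 7 of 18 alternatives, including without liver tumour replicate 2 (-0.79, adjusted p = 0.101), normal liver replicate 1 (-0.72, adjusted p = 0.202) or normal liver replicate 2 (-1.12, adjusted p = 0.0831). It was also lost with the ratio the other way up (limma adjusted p = 0.165) and under quantile normalization (-0.57, limma adjusted p = 0.295). MiR-30c over miR-30b was -0.94 and not called (SE 0.46, limma adjusted p = 0.187), beside 4.36% called lower and 9.45% called higher relative to miR-30b. It was called with the ratio the other way up (limma adjusted p = 0.0414), where the share of all miRNAs called relative to miR-30c was not counted. Without liver tumour replicate 2 its log2 difference was -1.30. MiR-30b and miR-30e, which lie on different chromosomes, kept the same ratio most closely, 5.74 and 5.03 in the tumours and 4.63 and 6.15 in the normal livers. The log2 difference of that ratio was 0.0052, with a 95% interval of -0.97 to 0.98 that does not show them to be alike. The other 3 pairs had log2 differences of -0.53 (miR-30a over miR-30d), -0.38 (miR-30b over miR-30a) and 0.39 (miR-30a over miR-30e), and limma called 0 of them (0 at an unadjusted p under 0.05).

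**Figure D4:**
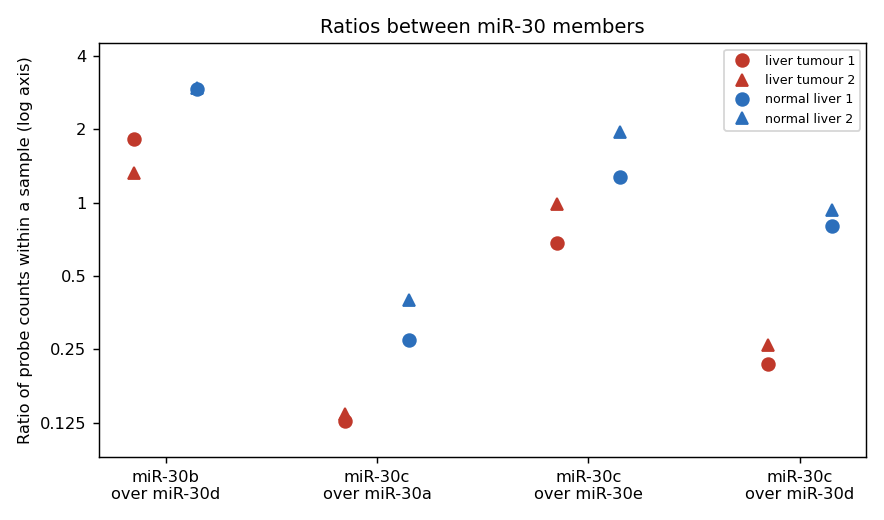
Ratio of probe counts within each sample (log axis) for the 3 pairs of members with neighbouring hairpins and for miR-30c over miR-30d, tumours in red and normal livers in blue. In all 4 pairs both tumours lie below both normal livers, with the widest gap for miR-30c over miR-30d.

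The composition of the family, as shares of its summed counts, differed between the groups without overlap in 2 of the 5 members, miR-30c and miR-30d. With 2 samples against 2, such a separation has an exact permutation p of 0.333, and 2 of 5 members is near that share. Shares within a sample also depend on each other, since a higher share of 1 member lowers the others. These are shares of probe counts, and probes can differ in efficiency, so only the change of a share between samples is compared. The family had 5515 and 1972 counts in the tumours and 1445 and 1287 in the normal livers. MiR-30c took 4.28% (exact Clopper-Pearson 95% interval 3.76 to 4.85) and 5.48% (4.51 to 6.57) in the tumours. Its shares in the normal livers were 9.69% (8.21 to 11.3) and 12.1% (10.4 to 14.0). The intervals, which cover counting error only, do not meet between the groups. MiR-30d took 19.7% and 20.9% in the tumours and 12.0% and 13.0% in the normal livers, again without overlap between the groups. The mean share of miR-30c was 4.88% ± 0.847 in tumours and 10.9% ± 1.72 in normal livers, and that of miR-30d was 20.3% ± 0.859 in tumours and 12.5% ± 0.661 in normal livers (SD, n = 2 each; exact permutation p = 0.333 for both).

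The 3 other members had overlapping shares. MiR-30a took 33.9% and 40.3% in the tumours and 35.4% and 30.5% in the normal livers. MiR-30b took 35.9% and 27.8% in the tumours and 35.2% and 38.2% in the normal livers. MiR-30e took 6.26% and 5.53% in the tumours and 7.61% and 6.22% in the normal livers. MiR-30a and miR-30b thus made up most of the family's counts in every sample.

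**Figure D5:**
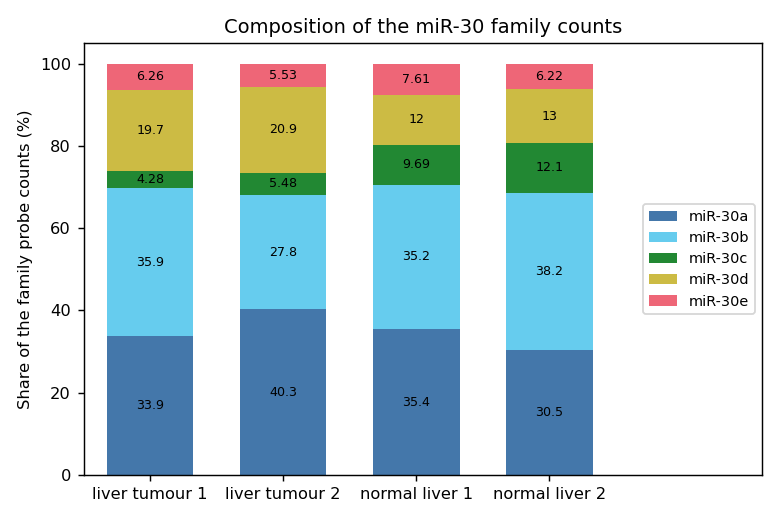
Share of each member in the summed probe counts of the miR-30 family, in percent, as 1 stacked bar per sample with tumours on the left. The miR-30c band is 4.28% and 5.48% in the tumours and 9.69% and 12.1% in the normal livers, and the miR-30d band is wider in both tumours.

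As a part of all miRNA counts the family took 2.30% and 1.59% in the tumours and 2.12% and 2.07% in the normal livers. The normal livers lay between the tumours, and the difference of means, -0.149 percentage points, was smaller than the spread between the tumours (SD 0.501). Without liver tumour replicate 2 the difference was 0.205. It was -0.304 with miR-720 left out of the total and -0.324 with miR-122 left out. MiR-720 had 21840 and 22659 counts in the tumours and 12679 and 10326 in the normal livers. Within all miRNA counts, these 2 included, miR-30c took 0.0985% and 0.0872% in the tumours and 0.205% and 0.251% in the normal livers. MiR-30d took 0.454% and 0.334% in the tumours and 0.255% and 0.269% in the normal livers. Neither set overlapped between the groups (exact permutation p = 0.333 for each). How many of all miRNAs separate on this scale was not counted. In the deposited scaling 64.5% of the 276 had both tumours below both normal livers and 15.2% had both above.

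Other repressors of matrix genes and the miRNAs with the most similar profiles were set beside the family. Of the 3 miR-29 members, 1 was called lower as deposited, miR-29b, beside 46.7% of all miRNAs tested. The median log2 difference of the 3 was -0.74. MiR-29a (-0.74, limma adjusted p = 0.0637) and miR-29c (-0.62, limma adjusted p = 0.0742) were also lower and were not called. Similarity was the distance between mean-centred log2 profiles over the 4 samples, a measure that any common scaling leaves almost unchanged. The 5 miRNAs nearest to the mean of the family were miR-3099, miR-29a, miR-15a, miR-676 and miR-148b, at distances of 0.155 to 0.239, and miR-3099 was above the negative controls in 2 of the 4 samples. MiR-29a, which had 2615 and 1877 scaled counts in the tumours and 3716 and 3685 in the normal livers, was also the nearest to miR-30b (0.162) and to miR-30e (0.231). MiR-16 was the nearest to miR-30d, with 2608 and 2318 in the tumours and 2202 and 2540 in the normal livers (0.103). The 5 nearest to miR-30c were miR-489, miR-467g, miR-331-5p, miR-323-3p and miR-490. They had 8 to 28 counts per sample and were above the negative controls in 2 or 3 of the 4 samples, whereas miR-30c had at least 108 counts in each. Among the members themselves miR-30b and miR-30e were closest (0.32) and miR-30c and miR-30d farthest apart (1.87).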

How the data were processed

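Per the labels' protocols, total RNA was extracted with TRIzol and assayed on the NanoString nCounter miRNA panel. The authors deposited a signal per probe, its count times 1 factor per sample. The software is not given in the sources used here. Whole counts were recovered for 100% of 603 scaled probes within 0.1 count, and control probes were deposited unscaled. The deposited factors equalised the geometric mean of the top 100 miRNAs (coefficient of variation 2e-04 percent). Members and lists were chosen with earlier results of these data known.

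The main test was limma 3.58.1 (R 4.3.3, two-sided) on log2 of the value plus 1. P-values were adjusted by Benjamini-Hochberg over 276 kept miRNAs, with a threshold of 0.05. A miRNA was kept with a mean log2 value above 3.93, which is 2 SD over the mean of the negative control probes after scaling. For miRNAs near background the pseudocount makes differences smaller, whereas the scaled background (log2 difference -1.79) pulls them towards a fall, so their falls can be overstated. Ratio fits subtracted the denominator's log2 value from every kept miRNA. EdgeR 4.0.16 and DESeq2 1.42.0 on recovered counts were alternatives. Intervals are exact Clopper-Pearson (SciPy 1.17.1) and cover counting error only. The procedure was tested on simulated data. Named miRNAs were the members, miR-384-5p and the 5 nearest profiles to the family mean and to miR-30c. The nearest to miR-30b, miR-30d and miR-30e were added after seeing the data. Same-numbered samples were not paired in the main test (correlation of deviations 0.042 over 276 miRNAs). That value compares 1 difference between tumours with 1 between normal livers, so it cannot show whether samples came from the same mouse.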

Additional observations from a re-analysis of the deposited data

How the results depend on the processing

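As deposited, limma called 1 member lower and 0 higher (0 at an unadjusted p under 0.05, against 1 by edgeR). The number called lower was 0 when scaled to the positive controls (3.62% of all miRNAs). There 0 members were lower and 1 was higher, miR-30d, at an unadjusted p under 0.05 by limma. EdgeR with TMM, which does not use that scaling, called 1 lower. The number called lower was also 0 with background subtracted (0% of all miRNAs, and 1 member at an unadjusted p under 0.05). It was 2 under a stricter filter of 116 miRNAs, chosen after seeing the data, where 29.3% of all were called lower. It was 3 with only miRNAs detected in all 4 samples (36.8% of all), with a pseudocount of 10 (52.4%) or 30 (51.5%), and with eBayes trend and robust (50%). The median log2 difference of the members was -1.05 without liver tumour replicate 1 and -0.49 without liver tumour replicate 2. The medians of all tested miRNAs were -0.59 and -1.05. Without normal liver replicate 1 or 2 the members were at -0.66 and -0.77, and all tested at -0.89 and -0.73. Such fits hold no spread within the group left with 1 sample. The number called higher was 1 with equal medians (21.4% of all), with edgeR under TMM (25.7%) or DESeq2 size factors (26.1%) and with DESeq2 (19.2%). Directions reversed as follows. MiR-30a was at 0.39 with equal medians, 0.038 with equal totals, 0.59 on the scale of the positive controls and 0.42 in edgeR, under both scalings, and in DESeq2. MiR-30b was at 0.00062 with equal medians, 0.21 with the positive controls, 0.087 in edgeR with TMM, 0.095 in edgeR with DESeq2 size factors and 0.094 in DESeq2, and the median of the 5 members took the same 5 values. MiR-30e was at 0.20 with the positive controls, 0.056 and 0.059 in edgeR and 0.055 in DESeq2. MiR-30d was at -0.21 under quantile normalization. Of 10 ratios, 4 were called, against 2 under quantile normalization, 1 without a filter, 1 with background subtracted and 1 to 3 with each sample left out. MiR-30a over miR-30d turned to 0.012 under quantile normalization. MiR-30b over miR-30e turned to -0.032 and -0.097 with pseudocounts of 10 and 30, -0.044 with background subtracted, -0.091 without liver tumour replicate 1 and -0.20 without normal liver replicate 1. The family's share of miRNA counts differed by -0.503 to 0.205 percentage points with each sample left out. The causes were not tested. With the replicate number as a block, limma called the same number of members lower, 1, beside 51.8% of all miRNAs. In that fit miR-30b over miR-30d lost its call (limma adjusted p = 0.0515). Changes of every member's share in the family kept their direction in the 5 alternatives run for each.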
